A study of Mus musculus with 19 samples.

Results

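RNA levels of 10 genes that mark fibroblasts and other mesenchymal cells were examined in primary mouse sarcomas: Pdgfra, Pdgfrb, Fap, Acta2, S100a4, Dpt, Pi16, Dcn, Lum and Postn. The genes were taken by their symbols from a table of 48795 Ensembl gene identifiers, and all 10 were found. The table covers 19 bulk tumors, 11 labelled Rag2-/- and 8 labelled Rag2+/-, with 1 library per tumor. All tumors were started in the gastrocnemius muscle of mice 6 to 10 weeks old by Adeno-sgp53-Cas9, a virus that delivers Cas9 with a p53 guide, followed by 300 µg of the carcinogen 3-methylcholanthrene (MCA) in sesame oil at 6 µg/µl. The mice were littermates of both sexes, per the study's methods. They were untreated and the tumors were taken at 70 to 150 mm3. Mice without Rag2 make no mature T or B cells, whereas 1 intact copy is enough for both. Both genotypes carried the p53 edit and the MCA exposure, so no normal muscle and no tumor of another origin stands beside them. The comparison asks whether tumors that grew without mature T and B cells held other levels of these genes than tumors that grew with them.

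Fibroblasts build and remodel the extracellular matrix of a tissue. Resting fibroblasts of the muscle interstitium and of vessel walls carry Pdgfra, Dpt and Pi16, while activated fibroblasts of wounds and tumors gain Fap, Postn and the contractile actin Acta2, and pericytes carry Pdgfrb. A sarcoma is itself a tumor of mesenchymal cells, so its malignant cells can express the same genes. In RNA of whole tumors, fewer cells of a type and less RNA per cell cannot be told apart, and neither can the RNA of malignant cells and of fibroblasts.

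The values are log2 levels after upper-quartile normalization of FPKM (fragments per kilobase of transcript and per M reads), to which 0.1 had been added, so that 1 unit is a doubling and levels of different genes can be compared per length. The estimated depth on genes was 24.7 to 33.3 M fragments in 18 tumors and 5.16 M in tumor S41. Rag2 RNA was at −0.34 ± 0.74 (SD, n = 11) in tumors labelled Rag2-/- and at −1.31 ± 0.70 (SD, n = 8) in those labelled Rag2+/-, so that it was not lower under the knockout label. A level over the whole gene does not show which part of Rag2 was deleted. The mean of a list of 12 T cell genes separated the labels without overlap, at −2.34 to −1.19 against 0.18 to 2.37. The group names below are those labels. Xist, which is transcribed in females, was above 0 in 7 of 11 Rag2-/- and 3 of 8 Rag2+/- tumors. Skeletal muscle RNA varied widely, with the mean of 15 muscle genes between 4.02 and 11.82 in Rag2-/- tumors and between 6.23 and 12.78 in Rag2+/- tumors. Of the 19 tumors, 4 are not among the 15 in the study's own list for this comparison (S41, S46 and S51 of Rag2-/-, S56 of Rag2+/-). The study's methods state that samples were dropped for poor quality or too little material, and whether this was so for these 4 is not given in the sources used here.

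All 10 genes were well above the detection floor in every tumor, and none of them differed between genotypes at the threshold of the test. None of the 10 had an adjusted p under 0.05 in limma with Benjamini-Hochberg adjustment over all 12826 genes tested, where 0.0312% of genes did. At an unadjusted p under 0.05 the count was again 0 of 10, against 16.3% of all genes tested. The difference (Rag2-/- minus Rag2+/-) was above 0 for 8 genes and below 0 for 2, with a median of 0.21 beside a median of 0.06 over all genes tested. With this number of tumors the 95% intervals were wide, and they reached from −1.65 for Pi16 to 1.75 for Pdgfra, so that differences above 1 log2 unit lie inside several of them. In the 15 tumors of the study's list 0 of the 10 genes were called too, against 0.116% of the 12877 genes tested there. At an unadjusted p under 0.05 that fit held 1 of the 10, Pdgfra, against 22.1% of genes.

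**Figure D1:**
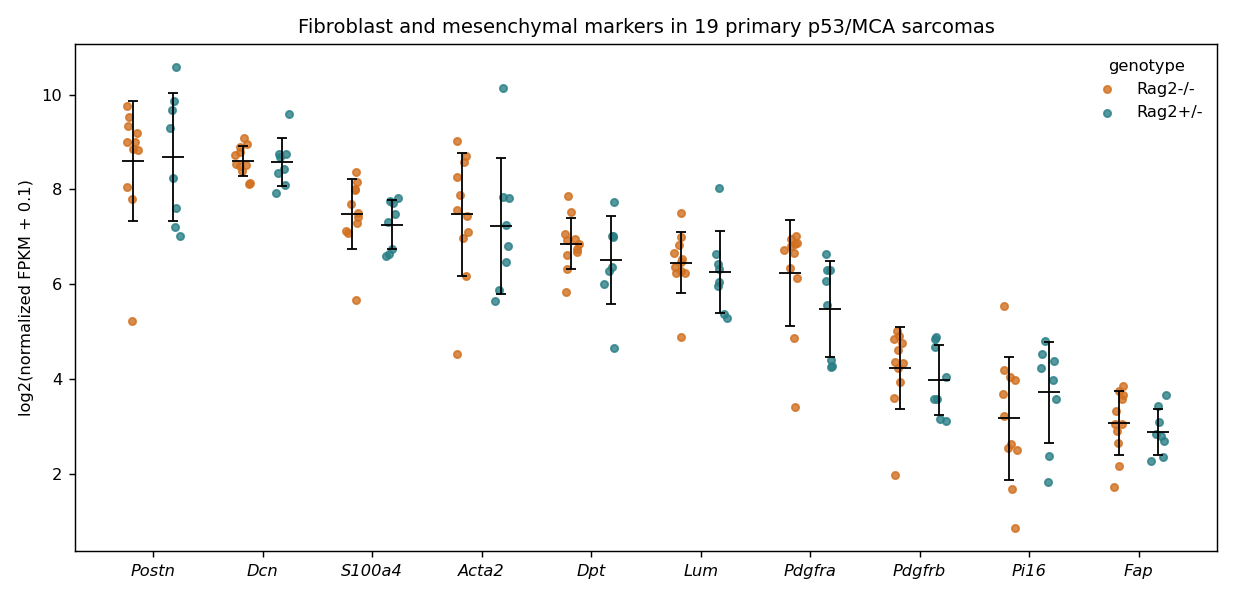
Log2 normalized FPKM (vertical axis) of the 10 genes, placed side by side, in each of the 11 Rag2-/- and 8 Rag2+/- tumors. Each tumor is a point, and the group mean is drawn with its SD. The groups overlap for all 10 genes, and the widest spread is that of Acta2, from 4.53 to 10.13.

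By level, the set ran from abundant matrix genes to a cell-surface protease near the middle of the genes tested. Postn and Dcn were highest, with geometric means over the 19 tumors of 397 and 385 normalized FPKM, and both lay in percentile 98.8 of the genes tested. S100a4 (167) and Acta2 (166) followed, then Dpt (105), Lum (82.8) and Pdgfra (60.4). Pdgfrb (17.5), Pi16 (10.5) and Fap (7.89) were the lowest, and Fap was in percentile 44.4. Most neighbors in this order did not differ beyond their spread over tumors. Only 2 of the 9 steps did: Dcn was above S100a4 by 1.20 ± 0.62 (SD, n = 19) on the log2 scale and in 18 of 19 tumors, and Pdgfra was above Pdgfrb by 1.79 ± 0.69 (SD, n = 19) and in all 19. Postn and Dcn differed by 0.04 ± 1.27 (SD, n = 19), and S100a4 and Acta2 by 0.02 ± 1.52 (SD, n = 19).

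The receptors for platelet-derived growth factor come first by role. Pdgfra (ENSMUSG00000029231, chr5:75152292-75198215, plus strand, build GRCm38) encodes the alpha receptor, which marks fibroblasts and the fibro-adipogenic progenitors of muscle. Its log2 level was 3.41 at the lowest, 6.73 at the median and 7.03 at the highest in Rag2-/- tumors, and 4.25, 5.82 and 6.63 in Rag2+/- tumors. Of the 11 Rag2-/- tumors, 7 were above the highest Rag2+/- tumor, 3 were within the Rag2+/- range and 1, S51, was below all others. Some of its exons overlap Gm42802 and Gm42803 on the opposite strand, and whether the counting used strand is not given in the sources used here. The means were 6.24 ± 1.12 (SD, n = 11) and 5.48 ± 1.01 (SD, n = 8), and they differed by 0.77 with an SE of 0.47 and a limma adjusted p of 0.370 (two-sided exact permutation test, p = 0.140). This was the largest difference of the 10 genes. It was 1.05 without S51 (limma adjusted p = 0.0948), 1.11 in the 15 listed tumors (95% interval 0.42 to 1.80, limma adjusted p = 0.217), 0.38 with Xist as a covariate (adjusted p = 0.723) and 0.06 with the muscle list as a covariate.

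Pdgfrb (ENSMUSG00000024620, chr18:61045150-61085061, plus strand, GRCm38) encodes the beta receptor of pericytes and activated fibroblasts. Its level was 1.98, 4.36 and 5.02 (lowest, median, highest) in Rag2-/- tumors and 3.13, 3.82 and 4.90 in Rag2+/- tumors. The lowest value was again S51, and 8 of the 11 Rag2-/- tumors lay inside the Rag2+/- range. The difference was 0.25 with an SE of 0.36 (limma adjusted p = 0.676). It was 0.54 in the 15 listed tumors and turned to −0.27 with the muscle list as a covariate. Of the 4 genes for the ligands of these receptors, Pdgfa, Pdgfb, Pdgfc and Pdgfd, none was called. Pdgfa was at 3.83 ± 0.56 (SD, n = 11) in Rag2-/- and 4.37 ± 0.46 (SD, n = 8) in Rag2+/- tumors, and Pdgfb at 3.04 ± 0.44 (SD, n = 11) and 3.57 ± 0.45 (SD, n = 8). The differences of these ligand genes, −0.54 and −0.52, each had a limma adjusted p of 0.301, and they were the 2 ligand genes with an unadjusted p under 0.05. Pdgfc (0.47) and Pdgfd (0.45) differed in the other direction and were not called.

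Among markers of activation, Fap (ENSMUSG00000000392, chr2:62500943-62574075, minus strand, GRCm38) encodes a cell-surface serine protease of reactive stroma. It was the lowest of the 10 genes, with 112 to 1061 estimated fragments per tumor. Its level was 1.73, 3.06 and 3.85 in Rag2-/- tumors and 2.27, 2.82 and 3.67 in Rag2+/- tumors (lowest, median, highest). The groups overlapped, with 3 Rag2-/- tumors above and 2 below the range of the other group. The difference was 0.18 with an SE of 0.27 (limma adjusted p = 0.697). Dpp4, which encodes a related protease and lies 88711 bases from Fap with Gcg between them, was lower, at a mean of 1.17 over the 19 tumors. The genes most alike to Fap across the 19 tumors were Ctsk, which encodes the collagen-degrading cathepsin K (r = 0.88), Ptgs1 (r = 0.83) and Thbs3 (r = 0.81). These r values, and those given for the other genes below, were picked as the highest of all genes tested and are descriptions without a test.

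Acta2 (ENSMUSG00000035783, chr19:34241090-34255590, minus strand, GRCm38) encodes alpha smooth muscle actin, the contractile protein of vessel walls and myofibroblasts. Its level was 4.53, 7.56 and 9.03 in Rag2-/- tumors and 5.64, 7.03 and 10.13 in Rag2+/- tumors (lowest, median, highest). It had the widest range of the 10 genes, 48.7-fold from S51, which is not in the study's list, to the Rag2+/- tumor S53. The group means, 7.48 ± 1.29 (SD, n = 11) and 7.23 ± 1.43 (SD, n = 8), differed by 0.25 with an SE of 0.59 (limma adjusted p = 0.808). The sign of this difference was not stable: it was 0.62 in the 15 listed tumors, −0.29 with Xist as a covariate and −0.67 with the muscle list. Of the 50-base stretches of its transcripts, 0.326% also occur in other genes, among them other actins. Its closest companions were smooth muscle genes, Myl9, which encodes a myosin regulatory light chain (r = 0.96), and Tagln, which encodes transgelin (r = 0.96), followed by Nedd4 (r = 0.93). Stambpl1, the neighbor that ends 756 bases away, had r = 0.74 with Acta2 over the tumors, and Fas, the neighbor on the other side, had r = −0.83.

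Since Acta2 and Myl9 moved together and Postn had the second widest range of the 10 genes, the promoter windows of these 3 genes are shown. Each is 300 bases from RefSeq (GRCm38.p6), 250 before and 50 after the annotated start, written 5′ to 3′ on the strand of the gene. Capitals mark a TATA-like motif (TATAAA or TATATA) in Acta2 and Postn and CArG boxes, the sites of serum response factor, in Acta2 and Myl9. A CArG box was read as CC, then 6 bases of A or T, then GG, and forms in which 1 of the 6 is G or C were marked too, a choice made after the sequences were seen. The windows are chr19:34255324-34255623 on the minus strand for Acta2, chr2:156775214-156775513 on the plus strand for Myl9 and chr3:54360857-54361156 on the plus strand for Postn, for which the table lists 2 windows and the other held neither motif.
Acta2: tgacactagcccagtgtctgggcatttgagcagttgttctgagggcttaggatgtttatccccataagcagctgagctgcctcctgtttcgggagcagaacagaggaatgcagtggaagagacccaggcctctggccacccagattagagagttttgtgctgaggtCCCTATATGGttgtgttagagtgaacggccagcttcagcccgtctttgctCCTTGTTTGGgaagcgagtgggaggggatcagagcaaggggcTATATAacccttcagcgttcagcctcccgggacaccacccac
Myl9: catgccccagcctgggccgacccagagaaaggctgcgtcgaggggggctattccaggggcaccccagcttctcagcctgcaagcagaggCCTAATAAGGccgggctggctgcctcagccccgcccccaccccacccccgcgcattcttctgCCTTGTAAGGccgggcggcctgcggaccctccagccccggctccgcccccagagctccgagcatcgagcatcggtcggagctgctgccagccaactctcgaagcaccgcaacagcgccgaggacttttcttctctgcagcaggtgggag
Postn: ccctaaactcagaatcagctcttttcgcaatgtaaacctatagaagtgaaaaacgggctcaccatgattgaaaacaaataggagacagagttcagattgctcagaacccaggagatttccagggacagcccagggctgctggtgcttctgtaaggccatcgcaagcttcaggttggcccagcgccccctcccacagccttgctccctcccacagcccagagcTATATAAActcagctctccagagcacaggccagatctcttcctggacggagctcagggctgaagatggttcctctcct
The motif in Acta2 begins 8 bases after the annotated start, those in Postn begin at positions −28 and −26 from it and overlap, and the full CArG box of Myl9 begins at −161. CArG boxes with 1 mismatch begin at −84 and −34 in Acta2 and at −99 in Myl9. The motifs were searched on both strands. Of 32851 promoter windows of this length, 1.63% held a full CArG box, 9.98% held one with at most 1 mismatch and 17.1% held a TATA-like motif. Among the other windows of the 10 genes in the promoter table, S100a4 held a TATA-like motif at position −31 and Dpt held one 12 bases after its start, and neither motif was found in Pdgfra or Pi16. The window of Cnn1, another smooth muscle gene, was searched too and held none of these motifs. No window was available for Tagln, Myh11, Pdgfrb, Fap, Dcn and Lum. The matches given above are letters in a window and not sites shown to be bound.

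S100a4 (ENSMUSG00000001020, chr3:90603771-90606045, plus strand, GRCm38) encodes a small calcium-binding protein that is used as a fibroblast marker and is also made by macrophages and many tumor cells. Its level was 5.67, 7.50 and 8.36 in Rag2-/- tumors and 6.60, 7.41 and 7.81 in Rag2+/- tumors (lowest, median, highest). The Rag2-/- tumors held both extremes, S48 at the bottom and S41, the shallow library, at the top. The difference was 0.22 with an SE of 0.29 (limma adjusted p = 0.647), and it was −0.05 in the 15 listed tumors. Its value carries an uncertainty of counting, since 47.4% of the 50-base stretches of its transcripts also belong to Gm42674, which overlaps it on the same strand and was at a mean of −3.00. The genes most alike to S100a4 were Cma1, Tpsab1 and Tpsb2 (r = 0.80, 0.79 and 0.77), which encode proteases of mast cells. With the mean of 12 macrophage genes its r was 0.43 (permutation test with 100000 draws, adjusted p = 0.112 over 16 relations; Spearman rho 0.32, adjusted p = 0.300). Without S46 and S56, the tumors farthest out on the macrophage list, this r was 0.21, and in the 15 listed tumors it was 0.17. Of 10 other S100 genes, which lie in one cluster with S100a4, 8 passed the filter on low levels and 0 were called. The most abundant of them was S100a6, at 9.80 ± 0.67 (SD, n = 11) in Rag2-/- and 9.19 ± 0.78 (SD, n = 8) in Rag2+/- tumors.

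Dpt and Pi16 mark resting, adventitial fibroblasts. Dpt (ENSMUSG00000026574, chr1:164796644-164824266, plus strand, GRCm38) encodes dermatopontin, a small matrix protein that binds decorin. Its level was 5.84, 6.86 and 7.87 in Rag2-/- tumors and 4.65, 6.68 and 7.74 in Rag2+/- tumors (lowest, median, highest). The groups overlapped throughout, with the lowest value in S53, the tumor highest for Acta2. The difference was 0.35 with an SE of 0.32 (limma adjusted p = 0.515). It was 0.08 without S53 and 0.52 without S55.

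Pi16 (ENSMUSG00000024011, chr17:29317680-29330593, plus strand, GRCm38) encodes peptidase inhibitor 16, a marker of progenitor-like fibroblasts around vessels. It had 174 to 2770 estimated fragments per tumor, and its level was 0.87, 3.22 and 5.54 in Rag2-/- tumors and 1.84, 4.11 and 4.80 in Rag2+/- tumors. A stretch of its exons overlaps AC162182.1 on the opposite strand. Both extremes, S48 and S51, were Rag2-/- tumors and lay 25.4-fold apart. Pi16 was 1 of the 2 genes with a lower mean in Rag2-/- tumors, 3.18 ± 1.30 (SD, n = 11) against 3.72 ± 1.06 (SD, n = 8). The difference was −0.55 with an SE of 0.53 (limma adjusted p = 0.534), and it was −0.86 in the 15 listed tumors and 0.34 with the muscle list as a covariate. Dpt and Pi16 had an r of 0.09 with each other (permutation adjusted p = 0.751; Spearman rho 0.17, adjusted p = 0.630). The genes most alike to Pi16 were Cadm3 (r = 0.91), Maob (r = 0.89) and Lyz1 (r = 0.89), whereas those most alike to Dpt were Olfm1, Rgs3 and Selplg (r = 0.81, 0.77 and 0.77).

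Decorin and lumican, proteoglycans that bind collagen fibrils, are encoded by neighboring genes. Dcn (ENSMUSG00000019929, chr10:97479609-97518143) and Lum (ENSMUSG00000036446, chr10:97565128-97572703) both lie on the plus strand of GRCm38, 46984 bases apart. Dcn was the steadiest of the 10 genes, at 8.12, 8.54 and 9.08 in Rag2-/- tumors and 7.93, 8.56 and 9.58 in Rag2+/- tumors (lowest, median, highest). All 11 Rag2-/- tumors lay inside the Rag2+/- range, and the whole range over 19 tumors was 3.14-fold. The difference of 0.04 had an SE of 0.19 and a 95% interval of −0.36 to 0.43 (limma adjusted p = 0.919). Lum was at 4.90, 6.47 and 7.51 in Rag2-/- tumors and at 5.30, 6.19 and 8.03 in Rag2+/- tumors. Again the groups overlapped, with 10 Rag2-/- tumors inside the other range and S51 below it. The difference of Lum was 0.19 with an SE of 0.33 (limma adjusted p = 0.726), and it lay between 0.05 without S56 and 0.44 without S55.

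Across tumors the level of Lum followed that of Dcn. Pearson r was 0.74 over the 19 tumors (permutation test with 100000 draws, adjusted p = 0.0016 over 16 relations) and Spearman rho was 0.76 (adjusted p = 0.0046). Within the genotypes r was 0.54 in Rag2-/- and 0.88 in Rag2+/- tumors, with adjusted p of 0.194 and 0.0692 by permutation. Without S53 and S55, the extremes of Dcn, it was 0.54. The next proteoglycan genes on that chromosome stretch, Kera and Epyc, were at means of only 0.05 and −2.71. Of 10 other small leucine-rich proteoglycan genes, 9 passed the filter on low levels and 0 were called. Their median difference was 0.17, with 0.44 in the 15 listed tumors and −0.04 with the muscle list as a covariate. Bgn, which encodes biglycan, was the most abundant of them at 9.66 ± 1.04 (SD, n = 11) in Rag2-/- and 9.06 ± 1.25 (SD, n = 8) in Rag2+/- tumors.

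Postn (ENSMUSG00000027750, chr3:54361109-54391037, plus strand, GRCm38) encodes periostin, a matrix protein of injured and remodeled tissue. Its level was 5.23, 8.99 and 9.76 in Rag2-/- tumors and 7.02, 8.77 and 10.58 in Rag2+/- tumors (lowest, median, highest). From S51, one of the unlisted tumors, to the Rag2+/- tumor S55 it varied 40.8-fold, and 10 of 11 Rag2-/- tumors lay inside the Rag2+/- range. The means of 8.60 ± 1.26 (SD, n = 11) and 8.68 ± 1.35 (SD, n = 8) differed by −0.09 with an SE of 0.57 (limma adjusted p = 0.932). In the 15 listed tumors the difference was 0.26, with quantile normalization 0.11, with Xist as a covariate −0.49 and with the muscle list as a covariate −0.96. The genes most alike to Postn were Aspn, which encodes the proteoglycan asporin (r = 0.94), F2r, which encodes a thrombin receptor (r = 0.94), and Gpr153 (r = 0.93). Fap and Postn had r = 0.62 (permutation adjusted p = 0.0072), but rho was 0.42 (adjusted p = 0.129), r without S51 was 0.44 and r in the 15 listed tumors was 0.31 (permutation adjusted p = 0.372).

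**Figure D2:**
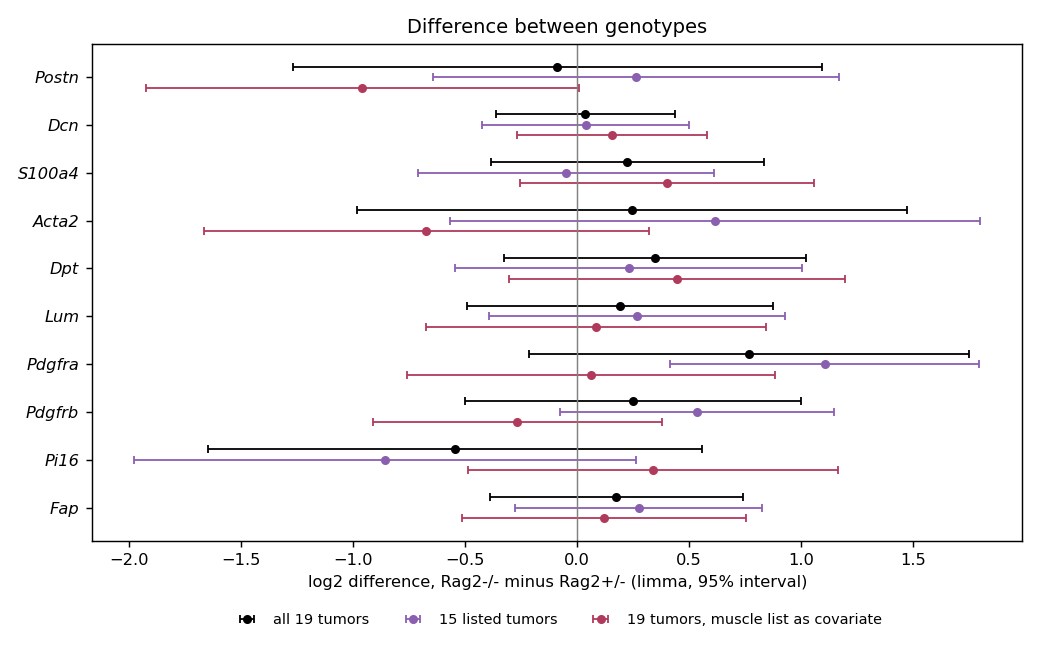
Difference in mean log2 level (Rag2-/- minus Rag2+/-, horizontal axis) for each of the 10 genes with all 19 tumors and its 95% limma interval, beside the difference in the 15 listed tumors and with the muscle list as a covariate. With all 19 tumors the 10 intervals include 0, and Pdgfra has the largest difference at 0.77, which is 1.11 in the 15 tumors, with an interval above 0, and 0.06 with the covariate.

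Within the genotypes, 9 of the 10 genes varied more than the middle gene of their level, most of all Postn, Acta2, Pi16 and Pdgfra. The within-genotype SD of Postn, Acta2, Pi16 and Pdgfra was 1.29, 1.35, 1.21 and 1.08, which put them in percentiles 94.4, 94.0, 93.9 and 92.9 among tested genes within 0.5 log2 of the same level. Dcn, with an SD of 0.41, was in percentile 42.9. The other 5 genes lay between percentiles 66.4 and 84.7. Single tumors held many of the extremes. S51 was the lowest of the 19 tumors for 6 genes (Pdgfra, Pdgfrb, Fap, Acta2, Lum and Postn) and the highest for Pi16. The Rag2+/- tumor S55 was highest for Dcn, Lum and Postn, and S55 and the Rag2-/- tumor S49 were above the 19-tumor mean for 10 of 10 genes. S56 was above it for 1.

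**Figure D3:**
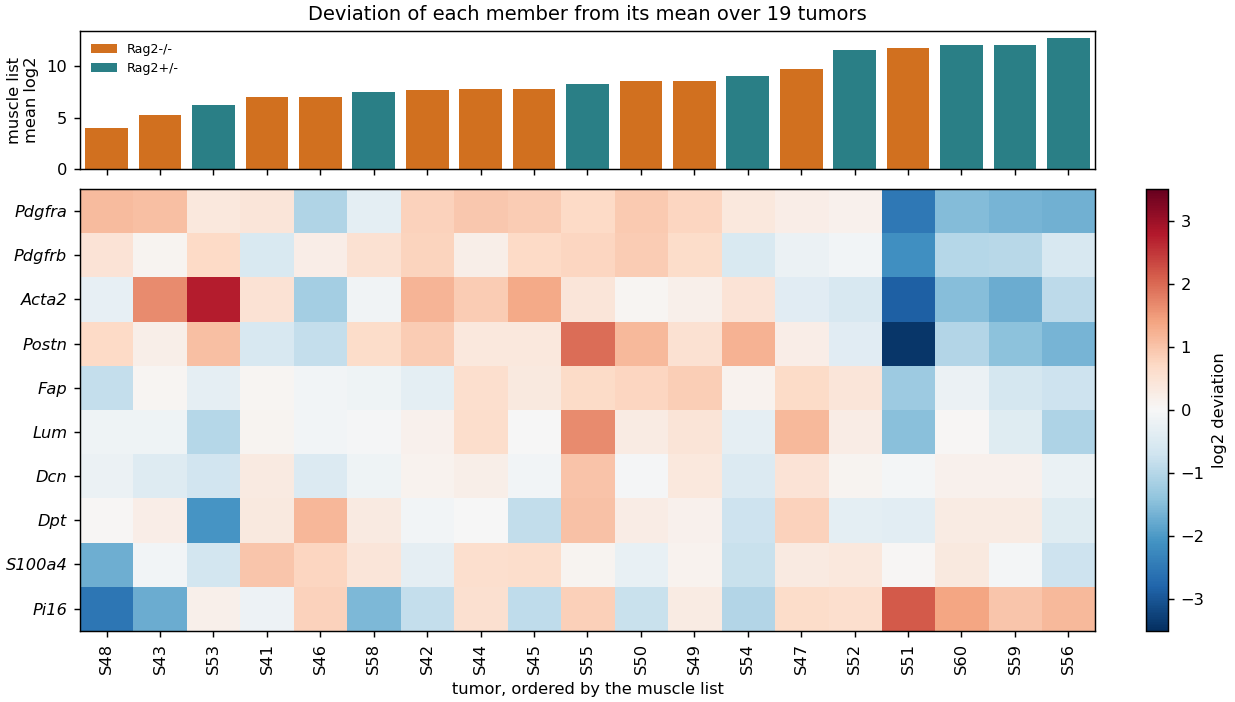
Deviation of each gene from its own mean over the 19 tumors (color, log2 units) for every tumor, with the genotype of each tumor marked. S51 stands out with 6 of the 10 genes at their lowest, and S55 with all 10 above their means.

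The levels moved with skeletal muscle RNA in opposite directions for different genes. Over the 19 tumors, r with the mean of the 15 muscle genes was −0.72 for Pdgfra (permutation adjusted p = 0.0016; rho −0.66, adjusted p = 0.0116), −0.66 for Acta2 (0.0047; rho −0.64, 0.0127) and −0.65 for Pdgfrb (0.0059; rho −0.54, 0.0426). For Postn r was −0.60 (permutation adjusted p = 0.0106), but rho was −0.44 (adjusted p = 0.123). For Pi16 it was 0.76 (permutation adjusted p = 0.0016; rho 0.72, adjusted p = 0.0071). Fap, S100a4, Dpt, Dcn and Lum had r between −0.19 and 0.25 and adjusted p between 0.448 and 0.970 by permutation. In the 15 listed tumors r was 0.51 for S100a4 (permutation adjusted p = 0.0909) and 0.40 for Dcn (0.218). The signs held within both genotypes for the first 5 genes, with r of −0.63 and −0.75 for Pdgfra and 0.85 and 0.64 for Pi16 in Rag2-/- and Rag2+/- tumors. Of these 10 relations within a genotype only that of Pi16 in Rag2-/- tumors had an adjusted p under 0.05 (0.0237 by permutation), and the others had 0.0555 to 0.204. Without S48 and S56, the extremes of the muscle list, r was −0.66 for Pdgfra, −0.79 for Acta2, −0.66 for Pdgfrb, −0.56 for Postn and 0.67 for Pi16.

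These relations rest on few tumors. The muscle values left a gap between 9.74 and 11.59, with 14 tumors below and 5 above it (S51 of Rag2-/- and S52, S56, S59 and S60 of Rag2+/-). Among the 14 tumors below the gap, r was −0.17 for Pdgfra, −0.12 for Pdgfrb, −0.22 for Acta2 and 0.20 for Postn, and none had an adjusted p under 0.05 by permutation. Pi16 had a lower r there than over all tumors, 0.57 (permutation adjusted p = 0.177), and Fap had 0.76 (permutation adjusted p = 0.0134). The 5 tumors above the gap are too few for an r. Of them, S51, S56, S59 and S60 were the 4 lowest of all tumors for Pdgfra, at 3.41, 4.25, 4.29 and 4.40, and also the 4 lowest for Pdgfrb and Postn and the 4 highest for Pi16. S52 was different, with Pdgfra at 6.07, Postn at 8.25 and Pi16 at 3.99, near the other tumors. Dcn was between 8.35 and 8.74 in all 5 of them, close to its mean of 8.59. The same 4 tumors had the lowest means of 10 cell cycle genes, 0.64 to 1.52, against 3.17 to 4.91 in the other 15. Xist was at −1.83 or lower in all 5 tumors above the gap, and all 10 tumors with Xist above 0 lay below it, so that muscle RNA and the sex of the mice cannot be told apart above the gap. Below the gap, S46, S49, S50 and S58 also had low Xist, at −3.05 or lower. In these tumors Pdgfra was at 4.87 to 6.85, Pdgfrb at 4.36 to 5.02, Postn at 7.79 to 9.76 and Pi16 at 1.84 to 4.2. The part of muscle, of sex or of dividing cells in the levels of the 10 genes was not tested beyond these values.

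**Figure D4:**
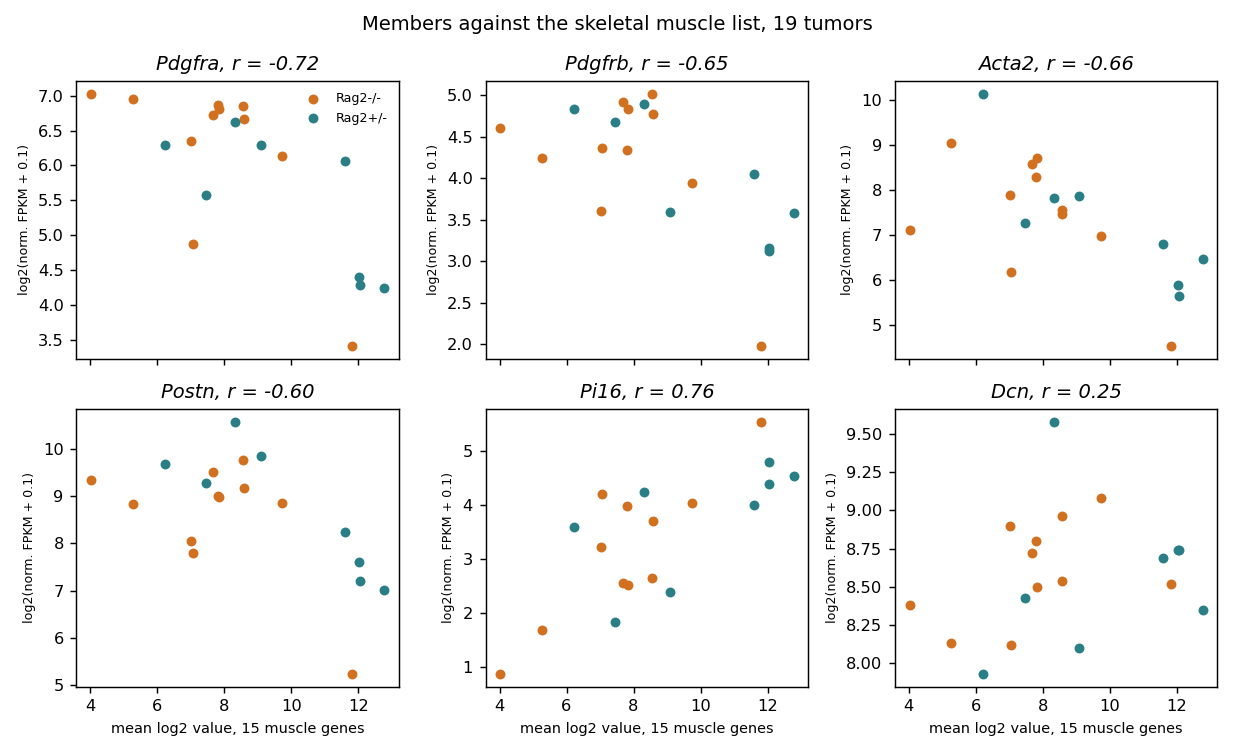
Log2 level of Pdgfra, Pdgfrb, Acta2, Postn, Pi16 and Dcn (vertical axis) against the mean log2 level of 15 skeletal muscle genes (horizontal axis). Each point is a tumor colored by genotype, and the other genes of the set are not drawn. For Pdgfra, Pdgfrb and Postn the 4 lowest points lie to the right of the gap from 9.74 to 11.59, and for Pi16 the 4 highest points do.

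Of the 5 relations between the genes themselves, 3 were lower among the 14 tumors and 2 were not. Pdgfra and Pdgfrb had r = 0.79 over 19 tumors (permutation adjusted p = 0.0016; rho 0.66, adjusted p = 0.0116), and Acta2 and Pdgfrb had r = 0.72 (permutation adjusted p = 0.0016; rho 0.60, adjusted p = 0.0231). Without the 2 tumors farthest out these were 0.66 and 0.56. Among the 14 tumors below the muscle gap they were 0.23 and 0.19, and Fap with Postn was 0.14. Dcn with Lum had r = 0.92 in the same 14 tumors (permutation adjusted p = 1.6e-04), and Dpt with Pi16 had 0.22 (permutation adjusted p = 0.627). The genes most alike to Pdgfra were Farp1, Cask and Gas1 (r = 0.97 for each), those most alike to Pdgfrb were Ephb3, Nedd9 and Btbd7 (r = 0.91, 0.91 and 0.90), those most alike to Dcn were Nespas, Col14a1 and Bdkrb1 (r = 0.71, 0.69 and 0.68) and those most alike to Lum were Ccn3, Plagl1 and Ctsk (r = 0.82, 0.79 and 0.79).

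**Figure D5:**
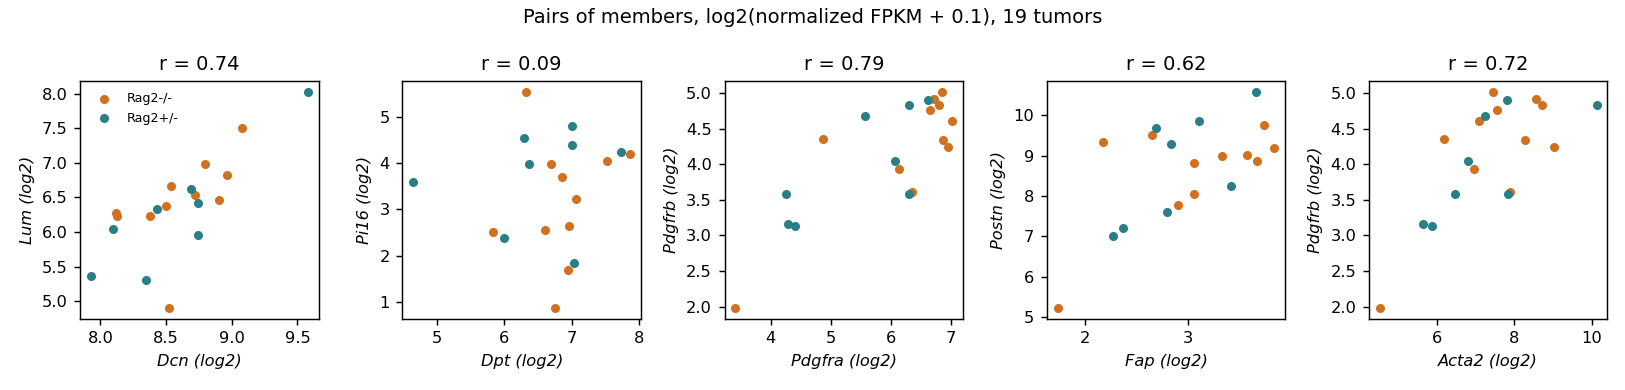
The 5 pairs of genes compared across tumors, log2 level against log2 level, a point per tumor colored by genotype. Dcn and Lum are related (r = 0.74), with S51 low for Lum at a Dcn level near the mean, Pdgfra and Pdgfrb (r = 0.79) are drawn out by the tumors at low levels, and Dpt and Pi16 (r = 0.09) form no line.

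Other stromal genes did not pass the test either. Of 16 further genes of resident fibroblasts, all were tested, 0 were called, 12 had a higher mean in Rag2-/- tumors, and the median difference was 0.29, or 0.14 with the muscle list as a covariate. The most abundant was Ly6a, which encodes the surface antigen Sca-1, at 8.63 ± 0.83 (SD, n = 11) and 8.22 ± 0.66 (SD, n = 8). Of 16 further genes of activated fibroblasts 0 were called and 13 had a higher mean in Rag2-/- tumors, with a median difference of 0.35 that turned to −0.24 with the muscle list as a covariate. Among them were Sparc, a collagen-binding protein, at 10.41 ± 0.59 (SD, n = 11) and 9.99 ± 0.65 (SD, n = 8), and Fn1, fibronectin, at 9.22 ± 1.15 (SD, n = 11) and 8.74 ± 1.22 (SD, n = 8). Of 15 genes of smooth muscle and pericytes 0 were called, with a median difference of −0.14. Des, the desmin gene of muscle fibers and pericytes, was at 6.95 ± 1.96 (SD, n = 11) in Rag2-/- and 9.32 ± 2.03 (SD, n = 8) in Rag2+/- tumors (limma adjusted p = 0.301). Of 6 general mesenchymal tumor markers 0 were called, with a median difference of 0.08 that was −0.35 with the muscle list as a covariate, and Vim, the vimentin gene, was at 10.10 ± 0.34 (SD, n = 11) and 9.97 ± 0.84 (SD, n = 8).

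Markers of other cells that a tumor can hold were measured beside these. Of 15 skeletal muscle genes 0 were called, all 15 had a lower mean in Rag2-/- tumors and the median difference was −2.22. At an unadjusted limma p under 0.05 the count was 11 of these 15, against 16.3% of all genes tested. Of 12 macrophage genes 0 were called, with list means of 6.30 ± 0.52 (SD, n = 11) and 6.05 ± 0.58 (SD, n = 8) and a median difference of 0.34 that was −0.0057 in the 15 listed tumors. Of 12 T cell genes 5 passed the filter on low levels and 1 was called, Cd2, which was lower in Rag2-/- tumors by −2.47 (limma adjusted p = 0.0302). The median difference was −1.33 over these 5 genes and −3.56 over all 12, since the filter removed genes near the floor in Rag2-/- tumors. Cd2, at means of −0.36 in Rag2-/- and 2.10 in Rag2+/- tumors, passed the filter only through the Rag2+/- group, as did Zap70 and Cd28. The call of Cd2 and the median over the 5 genes therefore depend on the filter. Of 10 endothelial genes 0 were called, with a median difference of −0.31, and of 10 cell cycle genes 0 were called, with a median difference of 0.82 that turned to −0.23 with the muscle list as a covariate. Of 9 epithelial genes 2 passed the filter, and of 8 adipocyte genes 6 did, and 0 were called in either list. The adipocyte list was highest in S46, the tumor highest for Dpt, at 8.75, against −1.70 to 6.24 in the other 18 tumors.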

How the data were processed

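Bulk RNA of 19 primary p53/MCA sarcomas was analysed, 11 labelled Rag2-/- and 8 labelled Rag2+/-. Libraries were sequenced in 150 base pair paired-end reads. Per the study's methods, alignment used mouse genome B38 and the Omicsoft Sequence Aligner (Array Studio), and genes were quantified by the authors on Ensembl R86 models. The labels' tool list names Trimmomatic, STAR and HTSeq instead, and which of the pipelines gave this table is not settled by the sources used here, nor is how overlapping genes were counted. The deposited values are log2 of upper-quartile normalized FPKM, and their lowest value of −3.32 shows that 0.1 had been added. Since they are normalized and not counts, no count test was used, and every column matched a tumor (0 unmatched). Each library is 1 mouse by the labels. The mice were littermates per the study's methods, but the labels do not say which tumors share a litter.

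Genes with a mean log2 level above 0 were tested in R 4.3.3 by limma 3.58.1 with its trend option, and p-values were adjusted by Benjamini-Hochberg (threshold 0.05). Single genes were also tested by exact permutation over 75582 splits of the tumors, and correlations by 100000 permutations, adjusted over 16 relations. Scripts were tested on simulated data. Depth was estimated from low values, which are whole multiples of 1 fragment to within 0.1 fragment for 82.7% to 93.1% of low genes, with GENCODE vM21 transcript lengths (GRCm38), which differ from the authors' release. Other steps used Python 3.11.15, numpy 2.4.6, pandas 2.3.3, scipy 1.17.1 and matplotlib 3.10.9.

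The 10 genes and the 14 gene lists beside them were chosen with earlier results of these data known. Named besides the 10 genes were list genes that were called, up to 6 others per list by highest mean level, and for each of the 10 the 3 genes with the highest r. Genomic neighbors, Rag2, Xist and tumors with extreme values were named after their values were seen. Alternatives were the 15 tumors of the study's list, each tumor left out, pseudocounts of 1 and 0.01, other filters on low levels, quantile normalization, a median shift, other variance models, and Xist or the muscle list as a covariate. The limit of the muscle list at 10 and the removal of S51 from correlations were added after seeing the data.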

Additional observations from a re-analysis of the deposited data

Results flagged for a closer look

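In the 8 Rag2+/- tumors, 24 measures (the 10 genes and 14 list means) were examined for a single tumor far from the others, and chance alone gives about 1 such tumor in 20 groups. None of the 10 genes had one. The mean of the 12 macrophage genes was 4.74 in S56, the tumor with the highest muscle list mean, against 5.94 to 6.65 in the other 7 tumors, a gap of 0.629 of the whole range. The mean of the 9 epithelial genes was 1.32 in S55, the tumor highest for Dcn, Lum and Postn, against −1.62 to −1.11 in the others, a gap of 0.826 of the range. The Rag2-/- group, with 11 tumors, was too large for this rule, but its tumor S47 had a higher mean of the epithelial genes than S55, at 1.91.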

How the results depend on the processing

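Under 30 alternatives, 19 of which left out a tumor, 0 of the 10 genes were called. The number of genes called over the whole table was 4, and it was 15 in the 15 listed tumors, 34 without a filter on low levels, 0 with a mean level above 2 (1676 at an unadjusted p under 0.05), 2 with the muscle list as a covariate and 3 to 7 with a tumor left out, with 7 without S51 or without S56. Pdgfra, Fap, Dpt and Lum kept their sign in all 30.

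Signs of differences turned as follows for the 10 genes, with the cause not tested. With the muscle list as a covariate the difference was −0.27 for Pdgfrb, −0.67 for Acta2 and 0.34 for Pi16, and with Xist as a covariate −0.29 for Acta2. The Xist covariate also moved Pdgfra to 0.38, Pdgfrb to 0.11, Fap to 0.11, Pi16 to −0.28, Lum to 0.075 and Postn to −0.49. In the 15 listed tumors the difference was −0.051 for S100a4 and 0.26 for Postn, and with quantile normalization 0.11 for Postn. Quantile normalization also moved Acta2 to 0.39, S100a4 to 0.39, Dpt to 0.52, Dcn to 0.19 and Lum to 0.34. With a tumor left out, Dcn ranged from −0.055 to 0.18 and was −0.011 without S47, −0.055 without S53 and −0.031 without S54, and Postn ranged from −0.33 to 0.25 and was 0.25 without S51, 0.053 without S53, 0.08 without S54 and 0.18 without S55. The ranges were 0.59 to 1.05 for Pdgfra, 0.13 to 0.47 for Pdgfrb, 0.086 to 0.31 for Fap, 0.017 to 0.66 for Acta2, 0.13 to 0.40 for S100a4, 0.083 to 0.52 for Dpt, −0.81 to −0.32 for Pi16 and 0.054 to 0.44 for Lum. Medians of gene lists turned too. With the muscle list as a covariate they were −0.24 for activated fibroblasts, −0.039 for the proteoglycans, −0.35 for mesenchymal tumor markers and −0.23 for the cell cycle. In the 15 listed tumors they were −0.0057 for macrophages and −0.72 for adipocytes, which were at 0.029 in all 19 and at 1.90 with the muscle list as a covariate.

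With the muscle list, r of Fap was 0.039 within Rag2-/- tumors, 0.20 in the 15 listed tumors, 0.011 without S51, −0.15 without S41 and 0.76 in the 14 tumors with a muscle mean below 10. That of Dpt was −0.13 within Rag2-/- tumors, that of Lum 0.17 in the 15 listed tumors and 0.52 in the 14, and that of Postn 0.20 in the 14.

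No paired analysis was possible because the labels give no number that ties a Rag2-/- to a Rag2+/- littermate. Limits are the wide intervals with 11 and 8 tumors, the shallow library S41, the uneven muscle content and bulk RNA that does not separate cell types.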
